A study of Bos taurus with 12 samples.

Results

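The circadian clock genes NR1D1, CLOCK, PER1, PER2, CRY1, DBP and BHLHE40 were examined in fat from 2 cattle breeds, Japanese Black (JB) and Holstein (HS). Members were all probe sets of the bovine Affymetrix array annotated with exactly 1 gene symbol out of these 7. That gave 6 probe sets of 4 genes, out of 24016 probe sets other than controls (4 of 9155 genes that the array names in this way). NR1D1 and CRY1 were read by 1 probe set each, and PER2 and BHLHE40 by a brighter and a dimmer one. CLOCK, PER1 and DBP are unnamed in the array annotation used here, so no value is given for them. NR1D1 leads the list and had stood apart between the breeds in subcutaneous fat in earlier results of these data, and this difference is taken here as the value behind the choice. For NR1D1, every comparison that uses the subcutaneous samples is therefore given as a description, without a test. The breed comparison in subcutaneous fat is a description for all genes.

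The samples came from steers kept on an energy-rich diet, which all 4 groups shared. JB, a beef breed, is known for its marbling, while HS is kept for milk. Each breed gave intramuscular fat (IMF), which lies between muscle fibre bundles, and subcutaneous fat (SCF) from beneath the skin. The groups JB IMF, HS IMF, JB SCF and HS SCF held 3 samples each, 12 in all. Samples carry the numbers of their titles, 1 to 3 in IMF and 4 to 6 in SCF. The labels do not say whether the samples of a group were separate animals, so p-values cover no more than the spread among these samples, part of which may be technical. Nor do they say whether IMF and SCF samples of a breed came from the same steers, and the depots were compared without pairing. The labels used here give neither the age of the steers nor the hour at which fat was taken. Sampling time, breed and any other difference in the handling of the breeds cannot be told apart in these data.

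The circadian clock is a feedback loop in which the transcription factors CLOCK and BMAL1 switch on genes of the PER and CRY families, whose products then inhibit them. CLOCK and BMAL1 also switch on NR1D1, a haem-binding nuclear receptor that represses transcription and holds down BMAL1, and BHLHE40, a basic helix-loop-helix repressor that acts on the same promoter elements. In mice the RNA of these genes swings over the day in most tissues, fat included, and different members peak at different hours. A level in fat taken at an unknown hour is thus a reading of an unknown phase of the rhythm. In a bulk tissue sample, moreover, fewer cells of a type and less RNA per cell cannot be told apart.

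One array, that of HS IMF 3, was dim: its median signal was 58.8, while the other 11 medians were 77.5 to 88.6. Its mean correlation with the rest of its group, 0.805, was also the lowest. HS samples were less alike within their groups, at 0.805 to 0.915, than JB samples, at 0.944 to 0.962. The GAPDH control's ratio of 3' to 5' signal, a sign of RNA degradation when high, stood at 4.06 in HS SCF 5 and at 1.19 to 2.40 elsewhere. The same ratio of the EF1A control gave another order. It was highest in HS IMF 1, at 1.89, lowest in HS IMF 3, at 0.32, and 1.27 in HS SCF 5. The 9 skeletal muscle fibre markers were all measured and none was listed at 0 in any sample. Their summed signal was 42959 to 94326 in IMF, with 6 samples, and 4327 to 16977 in SCF, also with 6. Adipocyte markers, 6 of 7 measured, summed to 19514 to 44412 in IMF and 41640 to 57917 in SCF. Values below are the deposited signals, and differences are on the scale of quantile-normalized log2(signal + 16), on which changes of dim genes come out too small.

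NR1D1 encodes REV-ERB alpha, the repressor that links the clock to lipid metabolism. Its signal was 47.6, 53.2 and 98.9 in JB IMF and 87.7, 104 and 33.2 in HS IMF. In SCF it was 36.2, 70.0 and 88.4 in JB and 213, 190 and 190 in HS. The HS SCF samples were the 3 highest of all 12, and they lay closer together than the samples of the other groups. The share of all probe sets with a group above all others was not counted. The other 3 groups overlapped one another throughout, so the order of their means has no weight. On the log2 scale the group means were 6.27 ± 0.42 in JB IMF, 6.50 ± 0.61 in HS IMF, 6.23 ± 0.49 in JB SCF and 7.71 ± 0.16 in HS SCF (SD, n = 3 each). NR1D1 lay near the middle of the array: its signal exceeded that of 32.3% to 56.3% of probe sets on the arrays of the 3 lower groups and 65.6% to 70.1% in HS SCF.

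**Figure D1:**
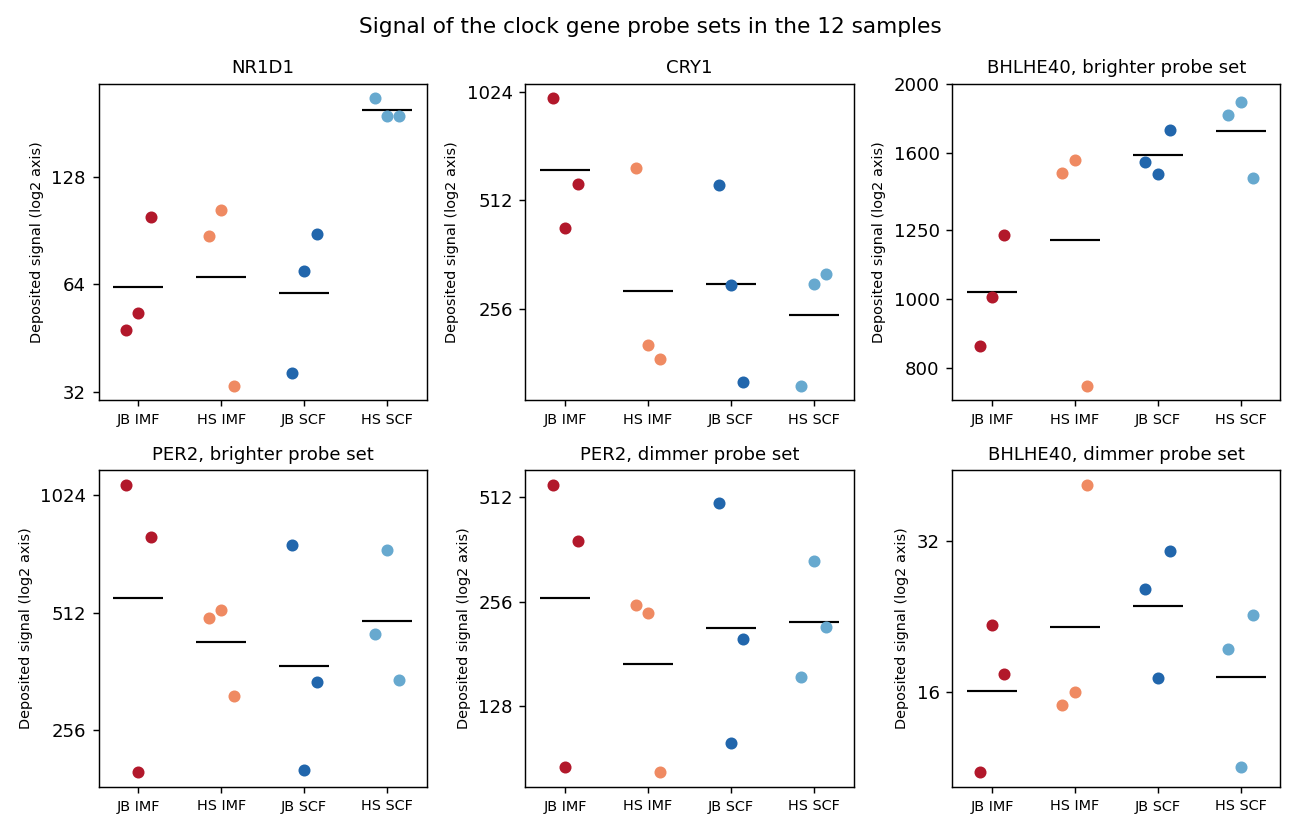
Deposited signal of each clock gene probe set (log2 axis) in the 4 groups, with a point for each of the 12 samples and a bar at the mean of the log2 signals of the group. For NR1D1 the 3 HS SCF samples, at 190 to 213, lie above all others. The PER2 panels show the widest scatter within groups.

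Because NR1D1 was picked out on its breed difference in SCF, that difference is described only. JB SCF averaged 64.8 ± 26.5 and HS SCF 198 ± 13.2 signal units (SD, n = 3 each). The log2 difference of JB minus HS was −1.47 ± 0.35 (SE), which is 2.78-fold lower in JB. The groups did not overlap. Of all 16811 probe sets tested, 6.20% had every JB SCF sample below every HS SCF sample. Leaving out each sample in turn moved the difference between −1.68 and −1.19. It was −1.71 with 1 in place of 16 added to the signal and −1.36 with arrays weighted by quality.

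The same comparison in IMF, on samples outside the SCF difference, gave a log2 difference of −0.23 (95% confidence interval −0.99 to 0.54). It did not pass (limma, Benjamini-Hochberg adjusted p = 0.808), and the JB and HS samples overlapped. HS IMF 3, the array that stood apart, had the lowest deposited NR1D1 signal of all 12. Without HS IMF 3 the NR1D1 difference was −0.58 ± 0.33 (SE), and the adjusted p by the same test was 0.813. Leaving out each sample in turn moved it between −0.58 and 0.02, with the sign turned without HS IMF 2, and it was −0.08 without JB IMF 1. Subtracting the breed difference in SCF from the one in IMF gave 1.25 ± 0.50 (SE). Without HS IMF 3 it was 0.93 ± 0.44 (SE), and with arrays weighted by quality 0.75 ± 0.48 (SE). These values contain the SCF difference by which the gene was chosen and are not tested.

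Between depots NR1D1 was lower in IMF in HS, while the JB depots overlapped. In HS the log2 difference of IMF minus SCF was −1.21 ± 0.35 (SE), with no overlap, and 12.7% of all probe sets tested were separated in that direction. In JB it was 0.04 ± 0.35 (SE). Over both breeds, 6 samples against 6, the difference was −0.58 ± 0.25 (SE), and without HS IMF 3 it was −0.42 ± 0.22 (SE). These differences rest on the HS SCF samples by which the gene was chosen and are not tested.

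The gene next to NR1D1 in RefSeq (assembly ARS-UCD2.0) is THRA, which encodes thyroid hormone receptor alpha, and these genes overlap by 1101 bases. The file does not say how the probes lie relative to that overlap. In their array names the NR1D1 and THRA probe sets share a cluster number. That the NR1D1 probe set reads NR1D1 rests on the annotation and was not tested. The THRA probe set did not follow NR1D1. THRA had 599, 703 and 805 as its lowest, median and highest signal in JB IMF, 380, 622 and 737 in HS IMF, 312, 436 and 455 in JB SCF, and 356, 362 and 406 in HS SCF. Its log2 difference between the breeds in SCF was −0.01 ± 0.34 (SE), against −1.47 for NR1D1. Between the depots THRA was higher in IMF by 0.85 ± 0.24 (SE; limma, Benjamini-Hochberg adjusted p = 0.0399), the opposite direction to NR1D1. The call was lost on leaving out any 1 of 8 samples, with adjusted p up to 0.105 by the same test, and held without JB IMF 2 or any 1 of the HS IMF samples.

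PER2, a repressor of the negative limb whose RNA also responds to glucocorticoids and feeding, varied mainly between samples of the same group. Its brighter probe set read 1091, 199 and 803 in JB IMF and 495, 519 and 313 in HS IMF. In SCF it read 764, 202 and 341 in JB and 452, 742 and 343 in HS. JB IMF 1 was the highest sample and JB IMF 2 and JB SCF 5 were the lowest pair. The dimmer PER2 probe set gave 557, 85.2 and 383 in JB IMF, 250, 238 and 82.2 in HS IMF, 495, 100 and 200 in JB SCF, and 155, 336 and 216 in HS SCF. It again had JB IMF 1 highest. Its lowest deposited signal was that of the dim array HS IMF 3, and after normalization JB IMF 2 and JB SCF 5 were again the lowest pair.

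After normalization the 2 PER2 probe sets shared the highest sample and the lowest pair, with the order within that pair turned. After each was centred on its mean, they differed by a root mean square of 0.37 log2 units over the 12 samples. They lay furthest apart, by 0.98, in HS IMF 3, and without that sample the root mean square was 0.25. The standard deviation of PER2 within groups, 0.80 for the brighter and 0.89 for the dimmer probe set, was larger than that of 91.0% and 93.9% of all probe sets tested, whose median was 0.41. In JB IMF the brighter probe set alone had an SD of 1.19 (n = 3), against 0.13 in HS IMF.

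With this spread no group difference of PER2 was detectable. The brighter probe set differed between the breeds in IMF by −0.01 (95% interval −1.24 to 1.21; limma, Benjamini-Hochberg adjusted p = 0.994) and the dimmer by 0.28 (−1.06 to 1.63; adjusted p = 0.866). Between the depots the brighter differed by 0.39 (−0.48 to 1.25; limma, Benjamini-Hochberg adjusted p = 0.574) and the dimmer by 0.10 (−0.85 to 1.05; adjusted p = 0.906). In SCF the breed differences were −0.46 ± 0.56 (SE) and −0.12 ± 0.62 (SE). These intervals leave room for more than a doubling in either direction between the breeds.

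CRY1 encodes cryptochrome 1, a repressor of CLOCK and BMAL1. Its signal was 985, 431 and 569 in JB IMF, 629, 203 and 185 in HS IMF, 563, 298 and 160 in JB SCF, and 157, 299 and 320 in HS SCF. JB IMF 1, the sample highest in PER2, was also the highest in CRY1. The groups overlapped in every comparison, though JB IMF had the highest mean, at 9.21 ± 0.57, followed by HS IMF at 8.55 ± 0.70 and JB SCF at 8.17 ± 0.81, with HS SCF lowest (log2 scale, SD, n = 3 each). No neighbours in this order differed beyond their spread.

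The depot difference of CRY1 was 0.80 ± 0.33 (SE) on the log2 scale, 1.74-fold higher in IMF, with a 95% interval of 0.08 to 1.52. It did not pass over all probe sets (limma, Benjamini-Hochberg adjusted p = 0.142). Within breeds it was 1.04 ± 0.47 (SE) in JB and 0.55 ± 0.47 (SE) in HS. Leaving out each sample in turn kept it between 0.60 and 1.01, with adjusted p values of 0.0796 to 0.296 by limma with Benjamini-Hochberg adjustment. Between the breeds CRY1 differed by 0.66 in IMF (95% interval −0.36 to 1.67; limma, Benjamini-Hochberg adjusted p = 0.597) and by 0.17 ± 0.47 (SE) in SCF.

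BHLHE40, also called DEC1, is a repressor known to respond to hypoxia and to nutrients besides the clock. Its brighter probe set was the steadiest member, with a within-group SD of 0.22 log2 units, smaller than that of all but 8.29% of probe sets tested. The signals were 860, 1007 and 1230 in JB IMF, 1501, 1564 and 756 in HS IMF, 1555, 1493 and 1722 in JB SCF, and 1810, 1887 and 1477 in HS SCF. The low value in HS IMF belongs to HS IMF 3, whose whole array was dim. After quantile normalization the 3 JB IMF samples, at 9.64 to 10.14, lay below all 9 others, and the other groups overlapped at 10.28 to 10.88. The share of all probe sets with a group below all others was not counted.

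In IMF the log2 difference of BHLHE40 between the breeds was −0.63 ± 0.23 (SE), 95% interval −1.14 to −0.12. It did not pass over all probe sets (limma, Benjamini-Hochberg adjusted p = 0.485). JB and HS IMF samples did not overlap on this scale, as was so in that direction for 6.50% of all probe sets tested, and they overlapped in the deposited values. Without HS IMF 3 the difference was −0.74 ± 0.22 (SE; adjusted p = 0.790 by the same test). In the values as deposited it was −0.24, while the median of all probe sets tested shifted from 0.10 with normalization to 0.37 without.

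Between depots BHLHE40 was lower in IMF by 0.60 ± 0.23 (SE) on the log2 scale in JB, without overlap, and 16.2% of all probe sets tested were separated in that direction. In HS the difference was −0.20 ± 0.23 (SE), with overlap. Over both breeds it was −0.40 ± 0.17 (SE), 95% interval −0.76 to −0.04, and did not pass (limma, Benjamini-Hochberg adjusted p = 0.140). In SCF the breeds differed by −0.23 ± 0.23 (SE). The dimmer BHLHE40 probe set had signals of 11.1 to 41.3 and was among the 30% of probe sets left out as dim. Its highest sample was HS IMF 3, and it had no separation between any of the groups compared.

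**Figure D2:**
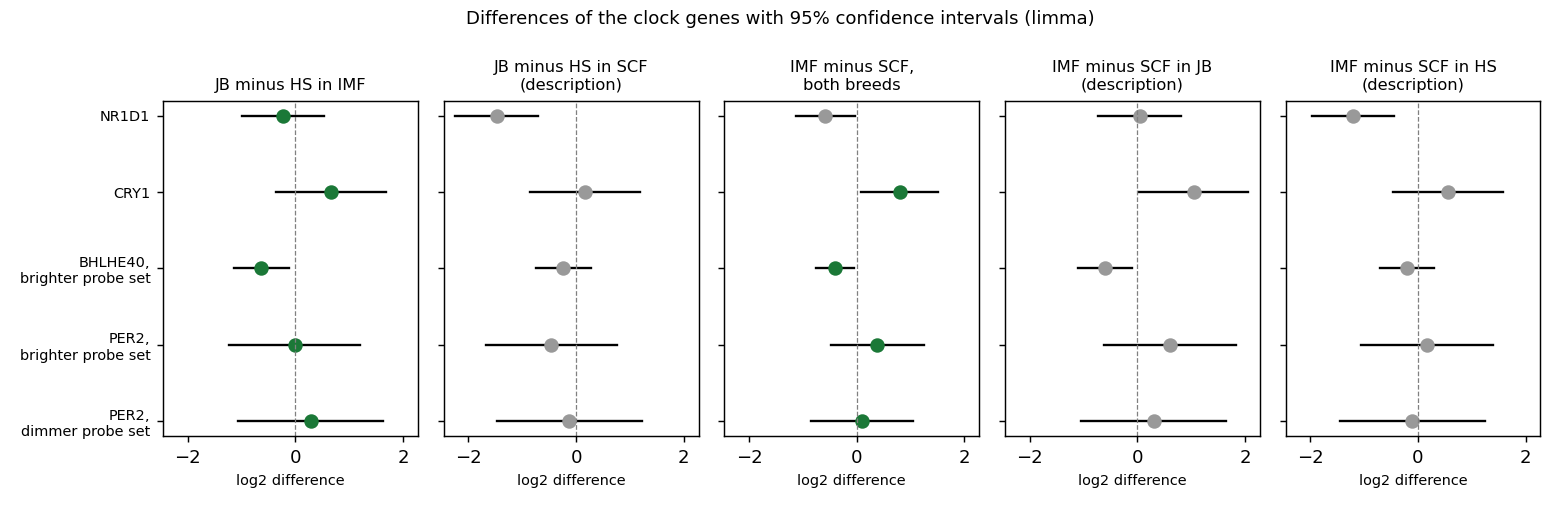
Log2 differences (points) with 95% confidence intervals (lines) of the 5 tested clock gene probe sets, in 5 comparisons. Green points were tested and grey points are descriptions. Among the green points the intervals of BHLHE40 between the breeds in IMF, and of CRY1 and BHLHE40 between the depots, lie to one side of 0 before adjustment over all probe sets.

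Of the 5 tested clock gene probe sets, 0 passed between the breeds in IMF, where 0.0238% of all probe sets passed (limma, Benjamini-Hochberg adjusted p below 0.05). Between the depots, NR1D1 left aside, 0 of the other 4 passed, where 11.0% of all probe sets did. At an unadjusted p under 0.05 there was 1 between the breeds in IMF, BHLHE40, against 10.2% of all probe sets. Between the depots there were 2 of 4, CRY1 and BHLHE40, against 27.2% of all probe sets. The median difference of the 5 between the breeds in IMF was −0.01, and that of all probe sets was 0.10.

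Other genes of the clock were followed through a list of 28: further members of the loop, regulators of clock protein stability and clock output genes. Of these, 13 carried a probe set with 1 symbol and 12 were bright enough to be tested, each through its brightest probe set. BMAL1, NPAS2, PER3, CRY2, NR1D2 and TEF were among those with no value here. Between the breeds in IMF 0 of the 12 passed (limma, Benjamini-Hochberg adjusted), and 0 had an unadjusted p under 0.05. The smallest p values belonged to USP2, a deubiquitinase whose RNA cycles in many tissues (0.61 ± 0.42 SE, adjusted p = 0.588), CIPC, an inhibitor of CLOCK (0.35 ± 0.40, adjusted p = 0.741) and HLF, a transcription factor of the DBP family (0.24 ± 0.32, adjusted p = 0.774) on the positive side. On the negative side they belonged to RORA, the activator that competes with NR1D1 for its binding sites (−0.57 ± 0.67 SE, adjusted p = 0.747), TIMELESS, a replication fork protein related to the fly clock protein (−0.11 ± 0.23, adjusted p = 0.861) and NAMPT (−0.16 ± 0.50, adjusted p = 0.912). The dimmer probe sets of TIMELESS (0.98 ± 0.51 SE) and NAMPT (0.53 ± 0.43) lay on the positive side instead. That of HLF (0.40 ± 0.30) kept its side, and none of these passed.

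Between the depots 2 of the 12 passed, both higher in IMF, and 0 passed lower (limma, Benjamini-Hochberg adjusted). Of all probe sets tested, 11.0% passed. At an unadjusted p under 0.05 there were 6 of 12, against 27.2% of all probe sets. NAMPT, the rate-limiting enzyme of NAD salvage and a clock output, had signals of 542, 635 and 1466 in JB IMF and 406, 639 and 1343 in HS IMF, each from lowest to highest. In SCF the NAMPT signals were 233, 279 and 338 in JB and 221, 296 and 397 in HS. All 6 IMF samples were above all 6 SCF samples, a separation that 3.11% of all probe sets tested showed in that direction. NAMPT rose by 1.48 ± 0.35 (SE) on the log2 scale, 2.78-fold (limma, Benjamini-Hochberg adjusted p = 0.0209). Its dimmer probe set differed by −0.08 ± 0.30 (SE) and did not pass (adjusted p = 0.887), so the rise was read by the brighter one.

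CIPC, the CLOCK-interacting inhibitor, was the other. Its signals were 698, 978 and 1785 in JB IMF and 378, 576 and 1115 in HS IMF, against 376, 454 and 626 in JB SCF and 437, 475 and 534 in HS SCF, each from lowest to highest. It rose by 0.95 ± 0.28 (SE) in IMF, 1.93-fold, at the edge of the threshold (limma, Benjamini-Hochberg adjusted p = 0.0494). In the deposited signals HS IMF 2, at 378, lay below every SCF sample but JB SCF 6, at 376. HS IMF 3, at 576, lay below JB SCF 4, at 626. After normalization HS IMF 2 also lay above JB SCF 5, and HS IMF 3 lay above all SCF samples. The CIPC call was lost without the filter on dim probe sets (adjusted p = 0.0540), with median centring (0.0661), with the values as deposited (0.110), with 1 in place of 16 added to the signal (0.0583), without HS IMF 3 and HS SCF 4 together (0.0988), and on leaving out any 1 of 10 samples, while it held without JB IMF 2 or HS IMF 2. Its adjusted p was highest, at 0.122, without JB IMF 1, which was the highest sample in CIPC as in CRY1 and PER2. The NAMPT call was lost without JB IMF 1 (adjusted p = 0.0568), JB SCF 5 (0.0522), JB SCF 6 (0.0533) or HS SCF 6 (0.0502). HLF (0.70 ± 0.22 SE, adjusted p = 0.0642), USP2 (0.91 ± 0.30, adjusted p = 0.0704) and KLF10, a transcription factor under clock control (0.53 ± 0.22, adjusted p = 0.137), came next by limma with Benjamini-Hochberg adjustment. USP2 was dim, with signals of 4.73 to 31.4 in JB SCF and a highest signal of 127, in JB IMF. Its depot difference was 1.51 ± 0.42 (SE) in JB and 0.31 ± 0.42 (SE) in HS. With arrays weighted by quality, HLF, USP2 and KLF10 all passed, at adjusted p = 0.0177, 0.0241 and 0.0392 in that order. Across the alternatives that kept all samples or left out more than 1, adjusted p by the same test rose to 0.291, 0.0804 and 0.422. On leaving out each sample in turn it rose to 0.159, 0.180 and 0.295. GSK3B, a kinase that phosphorylates clock proteins, had the lowest p on the negative side (−0.42 ± 0.19 SE, adjusted p = 0.174). The 9 muscle fibre markers were all higher in IMF, with a median difference of 6.61 and 7 of 9 past the threshold. Their median depot difference was 6.75 within JB and 6.24 within HS. Smooth muscle markers also lay higher in IMF, with a median of 2.92 and 4 of 5 passed, and their signal summed to 10243 to 53479 in IMF and 2174 to 5767 in SCF. Macrophage markers lay lower, with a median of −2.47 and 6 of 6 passed, and summed to 1253 to 3989 in IMF and 7033 to 24555 in SCF. The part of these markers in the depot values of the clock genes was not tested. Within JB, 6 of the 12 genes, namely CIPC, CSNK1D, USP2, HLF, KLF10 and NAMPT, lay higher in IMF without overlap, where 14.1% of all probe sets did, and NFIL3 lay lower. The other CSNK1D probe sets, which read a clock protein kinase, went in both directions. Within HS this held for NAMPT alone, where 7.79% of all probe sets did.

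**Figure D3:**
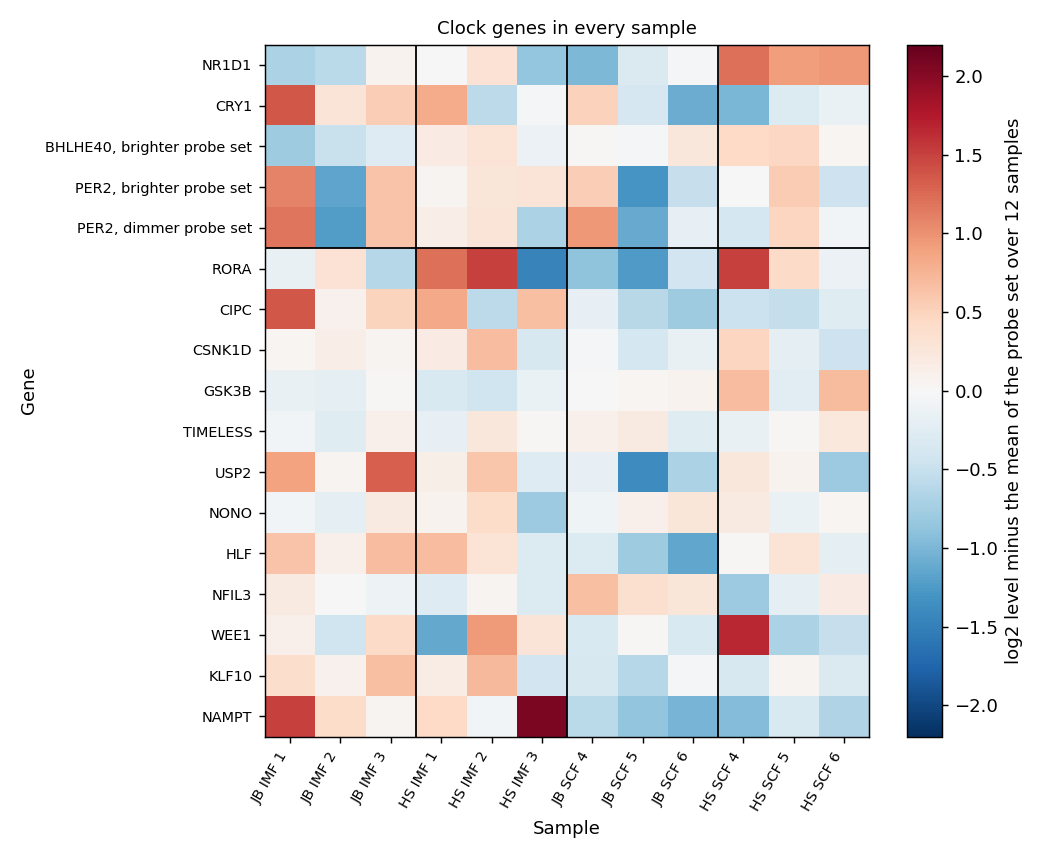
Centred log2 level of the 5 tested clock gene probe sets (upper rows) and of 12 other clock genes (lower rows) in each of the 12 samples. Colour shows the log2 level minus the mean of the probe set. NR1D1 is high in the 3 HS SCF samples, and JB IMF 1 is high in CRY1, CIPC and both PER2 probe sets.

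In SCF between the breeds, the contrast in which NR1D1 was noticed, the other clock genes are given as a description. HLF differed by −0.78 ± 0.32 (SE) and RORA by −1.45 ± 0.67 (SE), both with every JB sample below every HS sample after normalization, and HLF overlapped in the deposited values. The dimmer HLF probe set differed by −0.26 ± 0.30. NFIL3, a repressor that competes with DBP and HLF for their sites, differed by 0.71 ± 0.27 (SE), with all JB above all HS samples, and its dimmer probe set by 1.12 ± 0.36 (SE), with overlap. Among the 12 genes, 2 were separated with JB lower and 1 with JB higher, where 6.20% and 5.81% of all probe sets were. Their median difference was −0.16, that of all probe sets 0.00.

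Immediate early genes, which respond within minutes to stress and handling, are described in SCF in the same way. PER genes are known to share some of their inducers, and the PER2 probe sets differed there by −0.46 ± 0.56 and −0.12 ± 0.62 (SE). All 9 listed immediate early genes were positive for JB minus HS, as were 8471 of the 16811 probe sets tested. The median difference of the 9 was 1.06. Of these, 6 did not overlap, where 5.81% of all probe sets did not in that direction. Their summed signal was 38627 to 53656 in JB SCF and 19000 to 33545 in HS SCF, with none at 0. Among them EGR1 differed by 1.06 ± 0.27 (SE), NR4A1 by 1.46 ± 0.34 and ATF3 by 1.51 ± 0.38. In IMF all 9 were negative, with a median of −0.26 and no separation, where 7087 of the 16811 probe sets tested were negative. Of 4 tested glucocorticoid-responsive genes, SGK1 (0.57 ± 0.35 SE) and DUSP1 (0.49 ± 0.27) were separated with JB higher in SCF, as were 5.81% of all probe sets. GLUL (−0.18 ± 0.29) and ZBTB16 (−0.97 ± 0.83) were not separated. The part of these genes in the NR1D1 value was not tested.

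Macrophage markers, 6 of 7 measured, summed to 10993 to 24555 in JB SCF and 7033 to 12539 in HS SCF, and their part was not tested either. Muscle fibre markers summed to 5165 to 10242 in JB SCF and 4327 to 16977 in HS SCF. The GAPDH ratio was 4.06 in HS SCF 5 and 1.91 in HS SCF 6, and the EF1A ratio 1.27 and 0.53. The NR1D1 signal was 190 in each. Without HS SCF 5 the NR1D1 difference was −1.53. The part of RNA quality in the NR1D1 value was not tested.

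The genes whose pattern over the 12 samples lay nearest to NR1D1 were found by the root mean square difference between centred log2 levels, among 10201 tested probe sets with 1 symbol. A probe set that did not vary at all would be at 0.71. The nearest were PRR15L at 0.38, IDNK, a gluconokinase, at 0.41, IER3, an immediate early response gene, at 0.41, CHRAC1, a subunit of a chromatin accessibility complex, at 0.42 and NUP85, a nuclear pore protein, at 0.43. The deposited signals of PRR15L in HS SCF, 273, 274 and 292, were the highest of its 12 samples, as those of NR1D1 were. HS IMF 3, the dim array, had the lowest deposited signal of both. With the sign of NR1D1 turned, the nearest were METTL3, the RNA adenosine methyltransferase, at 0.34, FBLN1, the matrix protein fibulin 1, at 0.38 and ITGA7, a laminin-binding integrin subunit, at 0.39. METTL3 had signals of 90.8, 203 and 260 in JB SCF and 51.8, 57.0 and 111 in HS SCF.

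**Figure D4:**
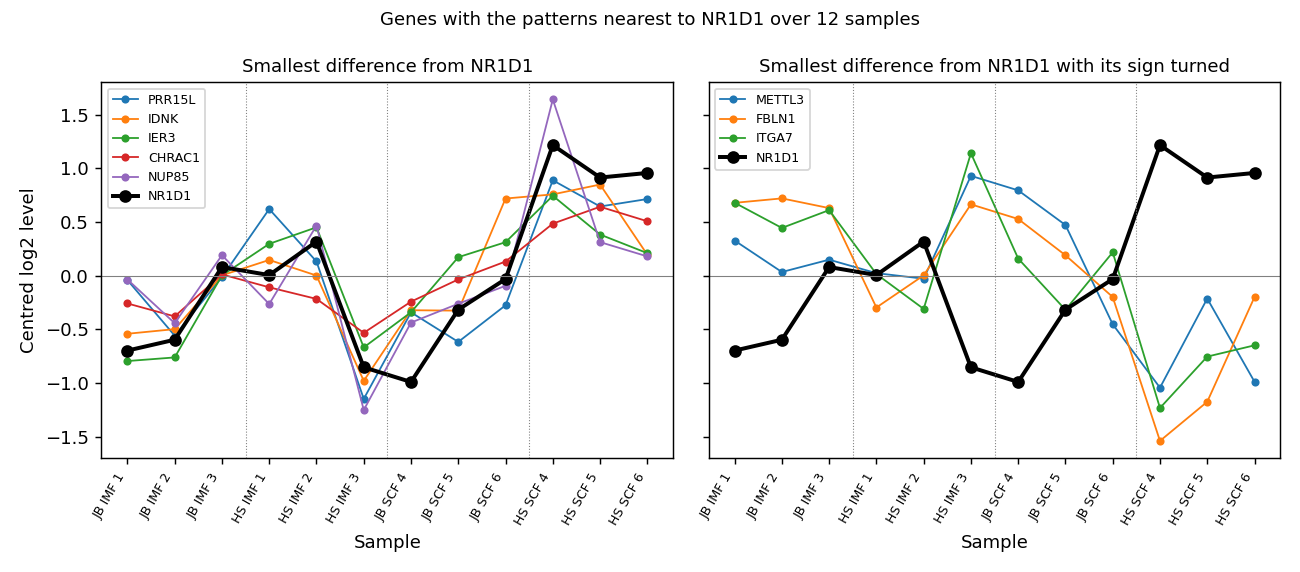
Centred log2 level over the 12 samples of NR1D1 (black) and of the 5 genes nearest to it (left) and the 3 genes nearest to it after its sign was turned (right). The 5 genes on the left follow NR1D1 with a root mean square difference of 0.38 to 0.43 and are low in HS IMF 3.

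None of the clock genes was among these nearest genes. BHLHE40 came closest, at 0.54 and place 105 of 10201 probe sets. The PER2 probe sets, at 1.01 and 1.02, lay further from NR1D1 than a flat probe set would, both as they stood and turned. This measure grows with a probe set's own spread, which was wide for PER2. Their Pearson correlations with NR1D1 were −0.03 and −0.01. CRY1 lay nearer to NR1D1 with the sign turned, at 0.68 against 1.24 as it stood. Among the other clock genes NFIL3 lay nearest to the turned NR1D1, at 0.60 and place 414. The likeness is over all 12 samples, which share the difference between HS SCF and the rest as well as the dim array HS IMF 3, and it is a description.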

How the data were processed

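Per the labels' protocols, labelled cRNA made from total RNA was put on the Affymetrix array for cattle. Programs listed in the submitters' processing notes are GCOS 1.1.1 and Affymetrix Expression Console 1.1. Each sample's table of 24128 intensity values was deposited on a linear scale, and how probes were summarized is not given in the sources used here. Here log2(signal + 16) was quantile normalized, 112 control probe sets and the dimmest 30% by mean were dropped, and 16811 probe sets were fitted with 4 group means in limma 3.58.1 (8 residual and 4.05 prior degrees of freedom; R 4.3.3), with Benjamini-Hochberg adjustment over all of them at 0.05. Symbols were updated by Entrez ID (13283 of 13318 matched). With 3 arrays per group, their number limits the precision.

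The members and lists were chosen with earlier results of these data known. All members are named. Other clock genes are named if past the threshold, otherwise the 3 smallest p in each direction, and likeness names the 5 nearest and 3 nearest turned genes. THRA and its alternatives were added after seeing the data, as the overlapping neighbour, and the genes described in SCF were picked after their values were seen. The alternatives were 50% or 0 left out as dim, median centring, values as deposited, adding 1 in place of 16, a robust variance with a trend, array weights, only the compared groups, a replicate block, each sample left out, HS IMF 3 and HS SCF 4 left out, and the other probe set of a gene. NR1D1 was also planned for the test between depots and is described there only, since HS SCF samples enter it. The fit was tested on simulated data. Figures used matplotlib 3.10.9.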

Additional observations from a re-analysis of the deposited data

How the results depend on the processing

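The count of clock gene probe sets past the threshold between the breeds in IMF was 0 under every alternative run. Between the depots it was also 0 among the probe sets other than NR1D1, which is described there only. The NR1D1 difference between the breeds in SCF stayed between −1.71 and −1.19. The NR1D1 difference between the breeds was larger in SCF than in IMF by 1.25, and by 0.75 with array weights. Leaving out each sample in turn, it ranged from 0.93 to 1.5, and the depot difference of NR1D1 ranged from −0.23 to 0.25 in JB and from −1.46 to −0.89 in HS. The dimmer BHLHE40 probe set turned the sign of 3 BHLHE40 differences, at 0.25 between the breeds in SCF, 0.013 between the depots and 0.32 between the depots in HS. The count of other clock genes past the threshold between the depots, 2, was 1 without a filter, as deposited and with a pseudocount of 1, and 5 with array weights or without HS IMF 3 and HS SCF 4. Leaving out each sample in turn it was 0 to 3. The cause was not tested. Equal numbers in JB and HS titles cannot mark a shared animal, since the breeds differ. The deviations of same-numbered samples from their group means correlated at −0.28 to 0.12, and 1 of 6 JB samples correlated best with its own number. Whether IMF and SCF samples of a breed came from the same steers was not tested. With the number as a replicate block the count between the breeds in IMF was 0, and the NR1D1 difference in SCF was −1.47 ± 0.41 (SE).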
